A study of Mus musculus with 4 samples.

Results

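Constitutive intergenic regions near genes were the regions of open chromatin that every liver library shared, that lay outside all protein-coding genes and that were still close to one. Overlapping or touching peaks of the 4 libraries were joined into 38853 regions. A region was kept when a peak of all 4 libraries lay in it, when it was outside every protein-coding gene of the RefSeq gene table (GRCm38.p6, mm10), and when the nearest gene end was over 1 kb and at most 50 kb away. This left 2914 regions, called the members here, which were 7.50% of all merged regions and 16.6% of the 17581 regions found in all 4 libraries. They were chosen by the presence of a peak in each library, so that presence is a description here and is not tested. Of the 8308 intergenic regions in the same range of distance, 35.1% were in all 4 libraries, 14.7% in 3, 17.2% in 2 and 33.1% in 1.

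ATAC-seq was used, an assay that marks accessible DNA by the insertions of a transposase, Tn5. Livers of PA mice were compared with livers of WT mice, with 2 libraries of each, which the series calls biological replicates. Per the labels' protocols the mutant (PA) mice have a hypomorphic Pcca-/- (A138T) genotype; Pcca encodes the alpha subunit of propionyl-CoA carboxylase, the mitochondrial enzyme that turns propionyl-CoA into methylmalonyl-CoA. WT stands for wild-type mice. Both groups were FVB females of 11 weeks on standard chow, and both were profiled from frozen whole liver with the Omni-ATAC protocol, so a change in the mix of cell types cannot be told apart from a change within a cell type. The lists held 25683 and 29765 peaks in PA 1 and PA 2, against 26280 and 25941 in WT 1 and WT 2. They give positions only, with no score, and read depth is unknown.

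Open chromatin away from promoters is typically enhancer or insulator DNA, where transcription factors displace nucleosomes and from where they act on genes at a distance. In liver, HNF4A, the FOXA proteins and C/EBP proteins bind many such sites beside genes for plasma proteins and for sugar, fat and bile acid metabolism. DNA outside protein-coding genes also holds genes of other kinds: long non-coding RNAs (lncRNAs), tRNA genes, which RNA polymerase III transcribes from promoters inside the gene, and microRNAs, short RNAs that pair with messenger RNAs through a seed at bases 2 to 8.

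Start windows of lncRNAs were the region sequences that could be read, since the sequence table holds 250 bases before to 50 after each RefSeq start (GRCm38.p6). The 5 shown lay wholly inside a member and were the best placed of the windows read in this way, by worst place over the 4 libraries. This worst place, in percent of the way down a list, was 0.533% for Snhg8. For the others it was from 3.05% (Dancr) to 4.79% (Gm42190). Some members with other lncRNA starts, such as Chaserr (1.39%) and Gm9530 (2.86%), were placed higher than all of the 5 but Snhg8. The 5 are examples, and need not show the range of promoter types at members. Capitals mark matches, searched on both strands, to GGGCGG (SP and KLF factors), CCAAT (NFY), TATAAA (the TATA box), CCGGAAG (ETS factors), GCGCATGC (NRF1), TGACGTCA (CREB and ATF factors), AAGATGGC (YY1), CAAAGTCCA (HNF4A), TGTTTAC (FOXA), TTGCNNAA (C/EBP), TGANTCA (AP-1) and GTTAATNAT (HNF1). Neighbouring GGGCGG matches can overlap and then appear as 1 run of capitals.
Snhg8, a snoRNA host gene, chr3:123508287-123508586, minus strand: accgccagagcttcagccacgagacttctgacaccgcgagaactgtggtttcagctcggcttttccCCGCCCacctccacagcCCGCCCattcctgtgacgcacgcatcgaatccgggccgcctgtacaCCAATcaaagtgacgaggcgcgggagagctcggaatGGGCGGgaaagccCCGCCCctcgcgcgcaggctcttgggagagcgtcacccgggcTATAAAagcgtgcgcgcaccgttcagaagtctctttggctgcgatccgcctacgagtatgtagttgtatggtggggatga
Dancr, a lncRNA, chr5:74092810-74093109, plus strand: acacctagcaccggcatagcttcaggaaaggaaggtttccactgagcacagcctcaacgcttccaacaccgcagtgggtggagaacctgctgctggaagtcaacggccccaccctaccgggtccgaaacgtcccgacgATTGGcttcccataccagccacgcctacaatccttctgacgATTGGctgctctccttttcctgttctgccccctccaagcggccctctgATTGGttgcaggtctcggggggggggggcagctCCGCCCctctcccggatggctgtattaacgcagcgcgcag
Mir22hg, the host gene of miR-22, chr11:75461289-75461588, plus strand: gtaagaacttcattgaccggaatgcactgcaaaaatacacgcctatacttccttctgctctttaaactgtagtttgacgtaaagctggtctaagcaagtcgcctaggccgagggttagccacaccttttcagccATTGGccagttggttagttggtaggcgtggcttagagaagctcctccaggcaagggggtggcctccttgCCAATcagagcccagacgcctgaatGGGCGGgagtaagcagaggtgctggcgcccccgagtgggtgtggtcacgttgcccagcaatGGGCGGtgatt
Snhg5, a snoRNA host gene, chr9:88522848-88523147, minus strand: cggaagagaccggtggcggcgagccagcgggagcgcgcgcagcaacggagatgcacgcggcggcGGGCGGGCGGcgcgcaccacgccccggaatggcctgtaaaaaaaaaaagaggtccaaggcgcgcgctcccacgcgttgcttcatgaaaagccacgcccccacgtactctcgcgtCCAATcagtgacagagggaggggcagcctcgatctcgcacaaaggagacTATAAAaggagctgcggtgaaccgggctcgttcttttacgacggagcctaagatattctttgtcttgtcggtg
Gm42190, a lncRNA beside Cp, chr3:19953905-19954204, minus strand: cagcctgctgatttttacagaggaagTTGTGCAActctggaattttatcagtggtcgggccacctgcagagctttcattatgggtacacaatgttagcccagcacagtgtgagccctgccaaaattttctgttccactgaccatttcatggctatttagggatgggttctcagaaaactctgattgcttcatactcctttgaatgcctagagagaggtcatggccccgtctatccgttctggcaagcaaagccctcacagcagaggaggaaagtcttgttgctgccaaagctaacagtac
The snoRNA host windows held 30 CpG dinucleotides (Snhg8) and 36 (Snhg5), against 18 in Dancr, 12 in Mir22hg and 3 in Gm42190. The Gm42190 window had the C/EBP match as its only match.

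Hairpins of microRNAs lay within 5 kb of 17 of the regions. These hairpins numbered 25, of 1005 in the table of hairpins, and 189 lay as near to any region in all 4 libraries. Of the 25, 12 were beside a region whose place was in the upper 25% of all 4 lists. Several of these 12 belong to 1 cluster beside the same region. Of all 2914 members, 359 (12.3%) had such a place. This is a share of regions, while the 12 of 25 is one of hairpins, so they are not compared. The region nearest Cspg5 overlapped the gene Mir6236, which was not among these 25 hairpins and is outside the counts. That region stood at 0.0545% and 0.151% in PA 1 and PA 2, against 1.61% and 0.555% in WT 1 and WT 2. For the hairpins beside the 3 best-placed of the 17 regions, the mature sequence of 1 arm each is given in RNA letters. Capitals mark the seed, to show which share a seed.
mmu-miR-22-3p: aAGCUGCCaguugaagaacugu
mmu-miR-17-5p: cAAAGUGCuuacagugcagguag
mmu-miR-20a-5p: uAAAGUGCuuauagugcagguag
mmu-miR-18a-5p: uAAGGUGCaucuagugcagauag
mmu-miR-19a-3p: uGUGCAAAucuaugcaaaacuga
mmu-miR-19b-3p: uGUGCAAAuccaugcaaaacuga
mmu-miR-92a-3p: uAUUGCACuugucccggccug
mmu-miR-210-3p: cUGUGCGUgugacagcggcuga
The microRNAs of the Mir17 to Mir92-1 cluster fell into seeds shared by miR-17 and miR-20a and by miR-19a and miR-19b, while miR-18a and miR-92a had a seed each. The region before this cluster ended 1207 bp ahead of the Mir17 hairpin, at chr14:115042053-115042464, and stood 4.66% and 4.74% of the way down the lists of PA 1 and PA 2, against 3.54% and 5.40% in WT 1 and WT 2. Its nearest protein-coding gene was Gpc5, 49737 bp away, just within the distance limit. The region with the start of Mir22hg ended 1992 bp from the Mir22 hairpin and was placed at 3.82% and 2.39% in PA 1 and PA 2, against 4.22% and 3.29% in WT 1 and WT 2. The region beside Mir210, a microRNA induced by low oxygen, was 159 bp from the hairpin and stood at 9.45% and 5.56% in PA 1 and PA 2, against 10.004% and 8.36% in WT 1 and WT 2. All 3 regions were near the top of every list, and none had PA and WT places far apart.

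Place, the percent of the way down a library's list at which a peak stood, was the value per library that the lists allowed, with low percentages at the top. The sources used here do not say what the order of the lines means, so a place is not read as a degree of openness. It was nevertheless shared between libraries: over the 2914 regions Spearman's rho was from 0.793 to 0.884 between pairs of libraries, as a description across regions, and the 3 pairs that include PA 1 had the lowest values. The constitutive intergenic regions had a median place of 50.5% and 41.0% in PA 1 and PA 2, against 47.5% and 49.1% in WT 1 and WT 2. Regions in all 4 libraries within 1 kb of a gene end stood much nearer the top, at 20.9% and 22.2% in PA 1 and PA 2 and 25.5% and 23.0% in WT 1 and WT 2. The intergenic regions were lower by 24.1 percentage points on average, in 4 of 4 libraries (exact sign-flip permutation over libraries, two-sided, p = 0.125, the smallest that 4 libraries allow). Against regions inside genes they were lower by 3.13 points, again in 4 of 4 libraries (exact sign-flip p = 0.125). Against the 1872 regions over 50 kb from a gene they were nearer the top in 3 of 4 libraries, with a mean difference of -2.20 points (exact sign-flip p = 0.25). Their medians were thus close to those of the other regions away from gene ends, and well below those at gene ends in every list.

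**Figure D1:**
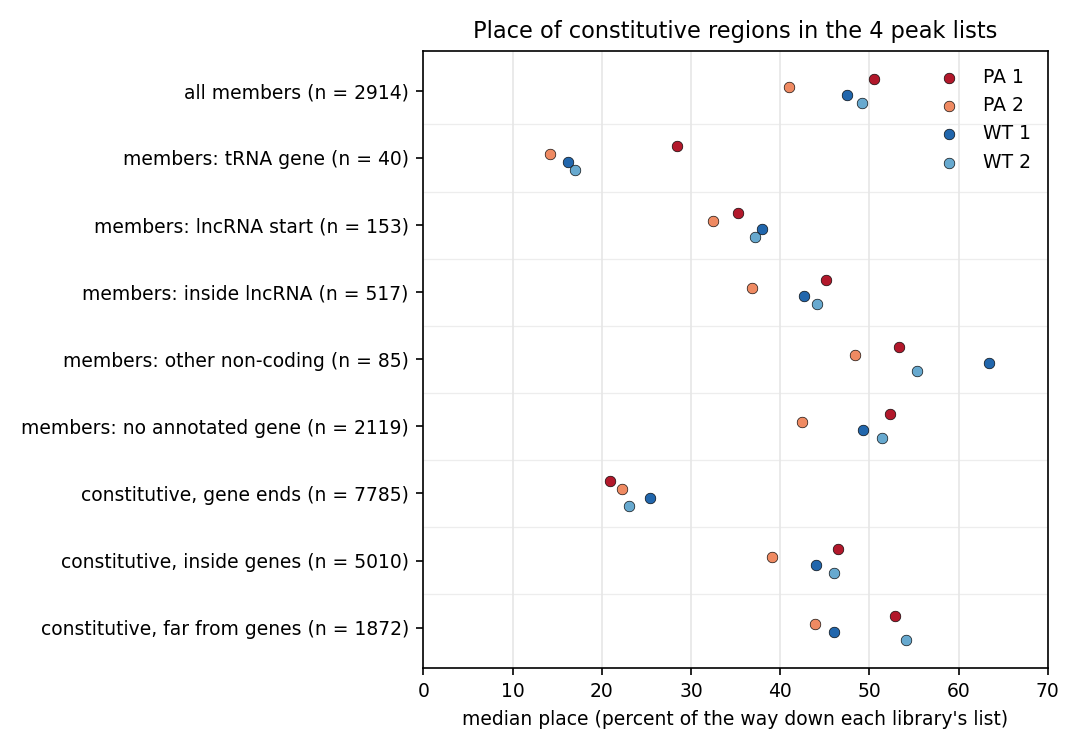
Median place in each library's peak list (horizontal axis, percent of the way down, low values at the top of the list) for the constitutive intergenic regions near genes (called members), for the kinds of non-coding gene they overlap, and for the other regions in all 4 libraries; each point is 1 library. Members at tRNA genes and at lncRNA starts stand nearer the top than the members with no annotated gene in all 4 libraries, and PA 1 stands apart from the other libraries at tRNA genes.

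The regions were short, since nearly all peaks in the lists were 400 bp long. Each held exactly 1 peak of each library, as did all 17581 regions in all 4 libraries. Their median length was 446 bp, with quartiles of 427 and 472 bp. The 4 peak centres of a region spanned a median of 46 bp. This was 41 bp for regions at gene ends, 45 bp inside genes and 45 bp far from genes, so it did not set these regions apart. Between the PA libraries the median shift of a centre was 21 bp and between the WT libraries 22 bp, against 18 to 24 bp for pairs of 1 PA and 1 WT library, so centres moved as much within a genotype as between them. The median distance to the nearest gene end was 14438.5 bp. The share of intergenic regions that were in all 4 libraries hardly depended on this distance: it was 34.6% at 1 to 5 kb, 34.9% at 5 to 10 kb, 35.8% at 10 to 25 kb and 34.6% at 25 to 50 kb. At the limits, the nearest region inside lay 1004 bp from Slc34a2 and the nearest outside 993 bp from Gm46592, and at the far limit the distances were 49976 bp from Egfr inside and 50005 bp from Erg outside.

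Most of the regions overlapped no annotated gene of any kind: this was so for 2119, or 72.7%. A further 517 (17.7%) overlapped a lncRNA away from its start window, 153 (5.25%) overlapped a lncRNA start window and 40 (1.37%) a tRNA gene. The other 85 (2.92%) overlapped another non-coding gene or a pseudogene. Each region was counted once, with tRNA genes taken first, and some of the 40 also held a lncRNA start. tRNA genes were in 0.167% of the regions in all 4 libraries at gene ends, in 0.0399% of those inside genes and in 0.107% of those far from genes. Of all 408 tRNA genes, however, 262 lie in the members' range of distance, and 62 (15.2%) were in any region in all 4 libraries. lncRNA starts were in 7.19% of the regions at gene ends, in 2.28% of those inside genes and in 5.13% of those far from genes.

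The tRNA-gene regions covered 44 of the 408 tRNA genes in the table, and 44 of the 262 tRNA genes that lie in the same range of distance from a protein-coding gene (16.8%). They carried 29 anticodons for 19 amino acids, with 8 genes for leucine tRNAs as the most of any amino acid, and 13 of the 40 regions were on chromosome 13. Peak centres lay at a median of 91.3 bp and at most 263 bp from the middle of the tRNA. Only regions that overlap a tRNA gene were counted, so these distances are short by the choice of regions. Their median place was 28.4% and 14.2% in PA 1 and PA 2, against 16.2% and 17.0% in WT 1 and WT 2. PA 1 stood lowest and the other 3 libraries close together, so the genotypes overlapped. Relative to members with neither a tRNA gene nor a lncRNA start they were nearer the top, with a mean difference of -29.0 points that had the same sign in 4 of 4 libraries (exact sign-flip p = 0.125) and was -31.8 points without chromosome 13. A peak lay at 57 and 87 tRNA genes in PA 1 and PA 2, against 78 and 75 in WT 1 and WT 2. tRNA genes occur in near-identical copies, and the sources used here do not say how reads that map to several copies were handled.

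The asparagine tRNA gene n-TNgtt14, 13512 bp from Uspl1, was in the highest-placed region of this kind, at 3.66% and 2.97% in PA 1 and PA 2, against 3.14% and 2.08% in WT 1 and WT 2. Next to the gene Ang, which encodes the ribonuclease angiogenin, the tyrosine tRNA gene n-TYgta10 stood at 8.16% and 1.01% in PA 1 and PA 2, against 2.17% and 2.57% in WT 1 and WT 2. Trim27, a ubiquitin ligase gene, had 6 regions around it, of which 5 held tRNA genes for leucine, alanine or arginine. The highest of these, with n-TLaag5 and n-TLaag7, was at 24.4% and 4.28% in PA 1 and PA 2, against 4.13% and 14.8% in WT 1 and WT 2, so its libraries spread widely within each genotype. A stretch by Abt1 and Btn1a1 on the same chromosome (13:23432498 to 23453837) held 4 regions within 10 kb of each other, each with a tRNA gene.

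The lncRNA starts in these regions belonged to 165 of 9520 lncRNA genes in the start table. The 153 regions grouped by such a start, without those at tRNA genes, had a median place of 35.3% and 32.5% in PA 1 and PA 2, against 38.0% and 37.2% in WT 1 and WT 2. They were nearer the top than members with neither feature in 4 of 4 libraries, with a mean difference of -12.2 points (exact sign-flip p = 0.125). The 177 lncRNA start windows at all members, tRNA-gene regions included, were intermediate in CpG count and GC content. The median CpG count per window was 9, against 4 in the 10073 lncRNA windows with no peak in any library and 24 in the 6980 protein-coding windows at regions in all 4 libraries. Median GC content was 53.7%, against 47.7% and 62.7% in the same order. GGGCGG was in 39.0% of the windows at members, in 11.0% of lncRNA windows with no peak, in 72.9% of the protein-coding windows and in 35.9% of all 32585 windows. CCGGAAG was in 11.9%, 2.63%, 22.7% and 8.92% of the same sets. TTGCNNAA was in 15.8%, 11.9%, 7.29% and 10.9%, and CAAAGTCCA in 3 of the 177 windows at members (1.69%), against 0.486%, 0.358% and 0.479% of the other sets. TGTTTAC was in 2 of the 177 (1.13%), against 5.02%, 2.26% and 3.67%, and GTTAATNAT in 3 (1.69%), against 0.933%, 0.344% and 0.807%. CCAAT, a short word that is common by base composition alone, was in 45.8%, 36.1%, 42.8% and 37.6%. A match describes the letters of the window and not a bound factor, and the sets differ in GC content.

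**Figure D2:**
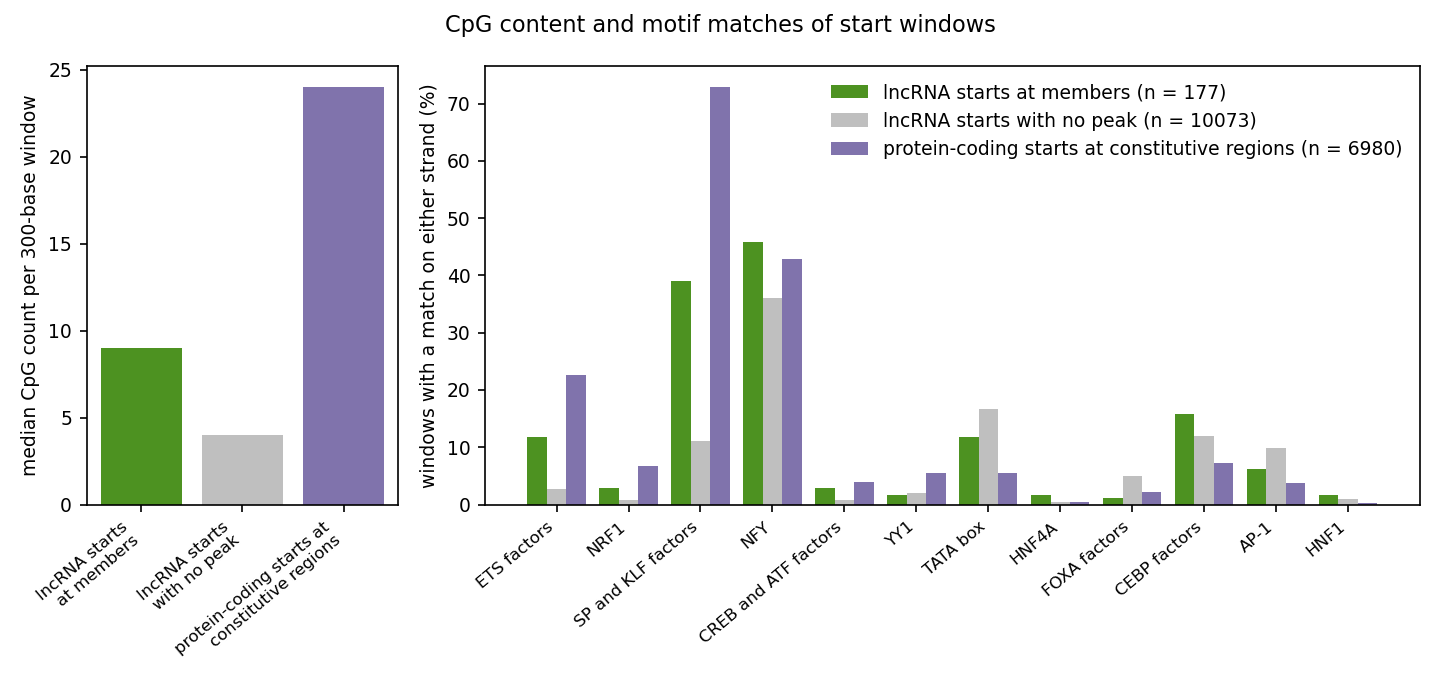
Left, median number of CpG dinucleotides per window around transcription starts (250 bases before to 50 after). Right, percent of windows with a match to each motif on either strand, for lncRNA starts in the constitutive intergenic regions, lncRNA starts with no peak, and protein-coding starts at regions in all 4 libraries. Windows at members lie between the other sets for CpG count and for the SP and KLF and the ETS motif.

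Starts of other RNAs were among the regions nearest the top of every list. Of the 15 whose worst place over the 4 libraries was nearest the top, 4 held a lncRNA start. The highest was the Snhg8 region shown above, 1657 bp from Prss12, at 0.533% and 0.323% in PA 1 and PA 2, against 0.205% and 0.359% in WT 1 and WT 2. The start of Chaserr, a lncRNA that in mice holds down the neighbouring chromatin remodeller gene Chd2, was at 1.39% and 0.692% in PA 1 and PA 2, against 1.19% and 0.416% in WT 1 and WT 2. A region 6435 bp from Elovl5, which elongates polyunsaturated fatty acids, overlapped no annotated gene and stood at 1.43% and 0.591% in PA 1 and PA 2, against 1.02% and 0.517% in WT 1 and WT 2. The start of Gm9530, 12535 bp from the immediate early gene Ier5, was at 2.309% and 1.57% in PA 1 and PA 2, against 1.85% and 2.86% in WT 1 and WT 2. The others of the 15 were nearest to Pak3, Cct8l1, Ptpdc1, Ccne1, Rab2a, Cspg5, Ccnl1, 4930467E23Rik, Rpp21, Slc2a3 and Ly6c2. In 5 of the 15 the 4 peak centres lay within 2 bp of each other, against 79 of all 2914 regions (2.71%). They include Snhg8, Pak3, Ccnl1, 4930467E23Rik and Rpp21, and no list of artefact-prone sequence was applied.

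Genes with such a region were a minority: 2283 of 21631 protein-coding genes, 10.6%, had at least 1. Of these, 1817 had 1 region, 346 had 2 and 120 had 3 or more. A region in all 4 libraries at an end of the gene itself was present for 67.5% of genes with 3 or more intergenic regions, 53.2% with 2, 50.03% with 1 and 39.5% with none. The genes with a region also had more intergenic DNA assigned to them, a median of 49.0 kb against 14.3 kb for genes with none.

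The most regions were beside E2f7, which encodes a repressor of cell cycle genes, and Trim27, with 6 each. Alb (albumin), Crot (a peroxisomal carnitine acyltransferase), Irs2 (an insulin receptor adaptor), Gclc (the catalytic subunit for glutathione synthesis), Car1 (a carbonic anhydrase), Pls3 (an actin bundler) and Fam214a had 5 each, and Adra1b, an adrenergic receptor gene, was among those with 4. The 6 regions of E2f7 were spread over the lists. The highest was at 10.9% and 5.57% in PA 1 and PA 2, against 2.88% and 8.19% in WT 1 and WT 2, and the lowest at 76.4% and 74.2% in PA 1 and PA 2, against 62.4% and 65.7% in WT 1 and WT 2. The Fam214a regions lay in the longest run of close neighbours, 6 regions within 10 kb of the next at chr9:74911346-74947095, between that gene and Onecut1, a liver transcription factor gene, to which the outermost was assigned. A run of 5 preceded Alb and a run of 4 lay between Hnf4a and Ttpal, while 2418 regions had no neighbour within 10 kb.

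Among the marker lists used to check the labelled tissue, 5 of 7 hepatocyte markers had a region (Alb, Hnf4a, Ttr, Cps1 and Apob), against 1 of 5 Kupffer cell, 2 of 5 liver endothelial, 1 of 5 stellate cell, 0 of 5 bile duct cell and 1 of 5 lymphocyte markers. Hepatocyte markers had 32.2 regions per Mb of assigned intergenic DNA, against 4.89 over all protein-coding genes. Of their 11 regions, 5 were by Alb. A region in all 4 libraries at a gene end was present for 2 of the 7 (28.6%), below the 40.7% of all genes. The other marker lists had 17.1 (liver endothelial), 7.65 (lymphocyte), 6.03 (Kupffer cell), 4.95 (stellate cell) and 0 (bile duct cell) per Mb. Most of these were thus also above 4.89. The only Kupffer marker with a region, Vsig4, had it near the bottom of the lists, at 83.9% and 99.9% in PA 1 and PA 2, against 97.5% and 90.7% in WT 1 and WT 2. The only lymphocyte marker with a region, Ptprc, had it further up, at 35.7% and 23.4% in PA 1 and PA 2, against 20.7% and 42.8% in WT 1 and WT 2. At the other end, 18 of 1106 olfactory receptor genes (1.63%), 4 of 353 vomeronasal receptor genes (1.13%), 1 of 20 neuronal genes and 3 of 34 developmental homeobox and PAX genes had a region. These shares describe gene lists chosen with earlier results known, and stand beside the 10.6% of all genes without a test.

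**Figure D3:**
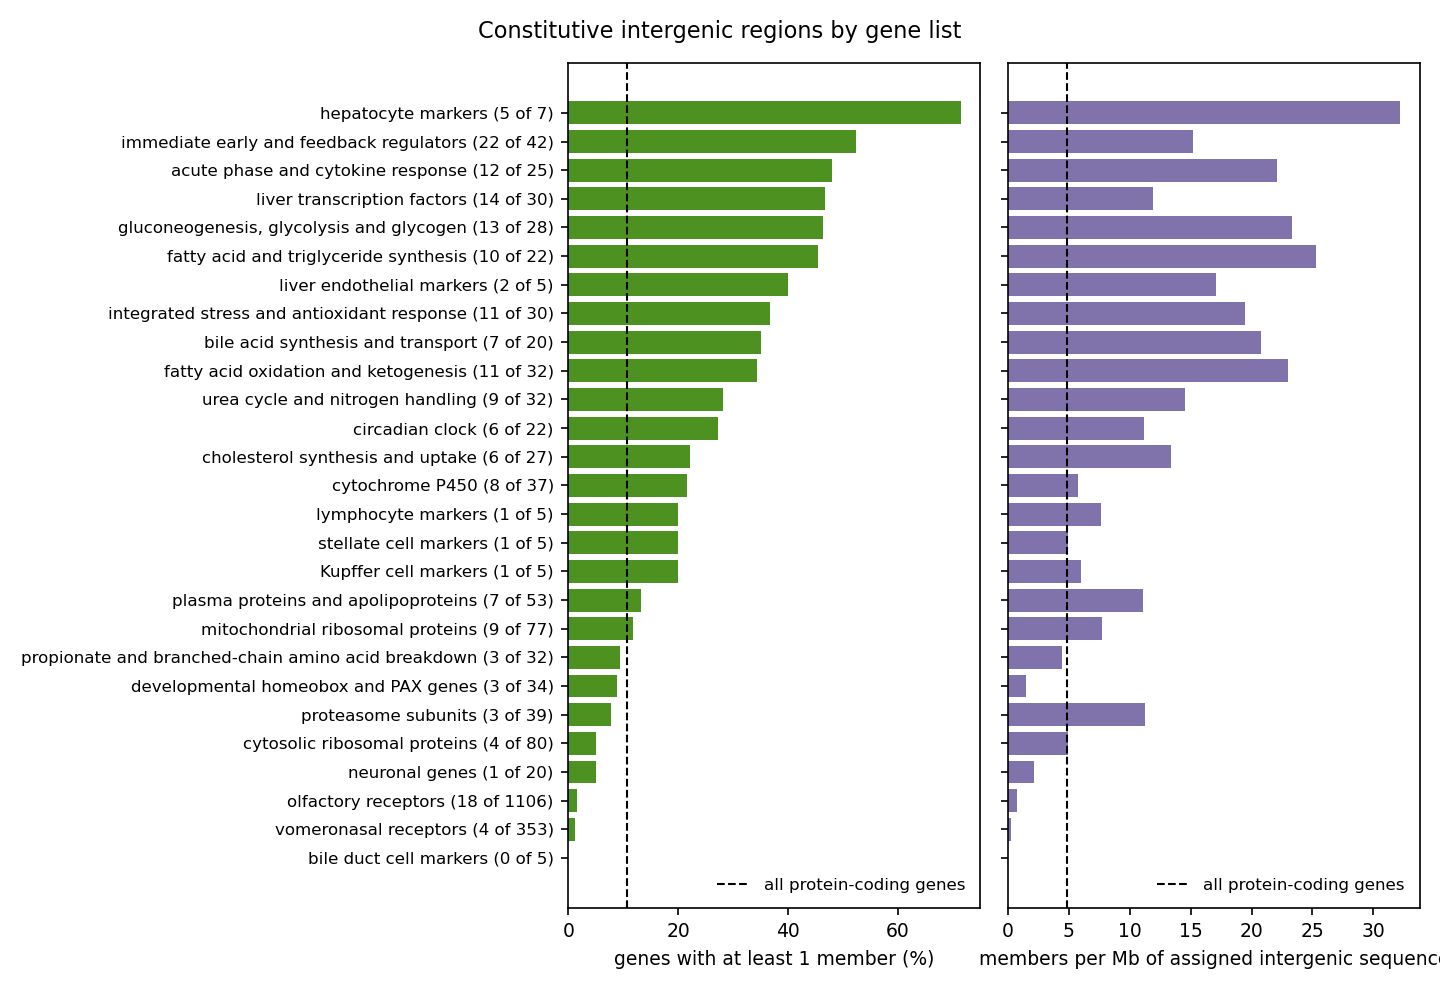
Percent of the genes of each list with at least 1 constitutive intergenic region (left) and number of such regions per Mb of intergenic DNA assigned to the list's genes (right); dashed lines give all protein-coding genes, at 10.6% and 4.89 per Mb, and the counts stand beside the list names. Hepatocyte markers, liver transcription factors and most metabolic lists lie to the right of both lines, propionate and branched-chain amino acid breakdown just to the left of them, and receptor families of the nose far to the left.

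Liver transcription factor genes had a region in 14 of 30 cases (46.7%) and 19 regions in all, at 11.9 per Mb. Cebpa, which encodes C/EBPα, had its highest region 21917 bp away, at 9.51% and 3.80% in PA 1 and PA 2, against 4.76% and 5.96% in WT 1 and WT 2. Nfib had one 6299 bp away, at 4.93% and 3.76% in PA 1 and PA 2, against 3.96% and 5.23% in WT 1 and WT 2. Hnf4a, the nuclear receptor that defines hepatocyte identity, had 3, of which the nearest, 2225 bp away, was at 39.3% and 28.8% in PA 1 and PA 2, against 39.8% and 33.7% in WT 1 and WT 2. Klf15, Prox1, Onecut2, Nr2f2, Nr0b2, Xbp1, Nr5a2, Foxa2, Nr1h4 (the bile acid receptor FXR), Onecut1 and Foxa1 completed the list. The Foxa1 region was the lowest of these, at 95.6% and 72.1% in PA 1 and PA 2, against 69.4% and 82.4% in WT 1 and WT 2. The libraries of the genotypes overlapped for all of the regions with values given here.

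Genes of energy and lipid metabolism stood above the share of all genes in most lists. The share with a region was 46.4% for gluconeogenesis, glycolysis and glycogen (13 of 28), 45.5% for fatty acid and triglyceride synthesis (10 of 22), 34.4% for fatty acid oxidation and ketogenesis (11 of 32), 35% for bile acids (7 of 20), 28.1% for the urea cycle and nitrogen handling (9 of 32), 22.2% for cholesterol (6 of 27) and 21.6% for cytochrome P450 genes (8 of 37). Per Mb the first of these lists had 23.4 regions, fatty acid synthesis 25.3, fatty acid oxidation 23.0, bile acids 20.8, the urea cycle 14.5, cholesterol 13.4 and the P450 genes 5.76. Scd1, a fatty acid desaturase, had one 5613 bp away at 10.9% and 6.14% in PA 1 and PA 2, against 12.1% and 5.86% in WT 1 and WT 2. Insig1, which holds the sterol sensor complex in the endoplasmic reticulum, had 3, the highest at 8.34% and 2.01% in PA 1 and PA 2, against 4.04% and 5.06% in WT 1 and WT 2. Cyp7a1, the rate-limiting enzyme of bile acid synthesis, had 4, of which the highest was 2415 bp away, at 36.7% and 28.2% in PA 1 and PA 2, against 20.2% and 28.9% in WT 1 and WT 2. In the urea cycle list, Slc25a13, the mitochondrial aspartate carrier citrin, had one at 8.96% and 5.72% in PA 1 and PA 2, against 5.24% and 7.79% in WT 1 and WT 2, and Arg1 (arginase) one at 14.9% and 9.76% in PA 1 and PA 2, against 12.7% and 12.9% in WT 1 and WT 2. Other highest-placed genes of these lists were Fbp1, Irs1 and Pygl for glucose, Plin2, Pdk4, Bdh1 and Fabp1 for fatty acid use, Thrsp and Pnpla3 for synthesis, Sc5d, Scarb1 and Insig2 for cholesterol, and Cyp2u1, Cyp1a2, Cyp2d10 and Cyp3a11 among the P450 genes.

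Propionate and branched-chain amino acid breakdown, the pathway around the mutated gene, was near the background: 3 of 32 genes (9.38%) had a region, against 10.6% of all genes, at 4.45 per Mb, against 4.89. With a limit of 25 kb the list's share was the same 9.38%, against 8.40% of all genes. In this list 25 of the 32 genes had a region in all 4 libraries at a gene end. Pcca and its partner Pccb had no constitutive intergenic region. Ppm1k, the phosphatase that activates the branched-chain ketoacid dehydrogenase, had a region 9306 bp away at 24.6% and 16.2% in PA 1 and PA 2, against 16.6% and 29.3% in WT 1 and WT 2. Mmadhc, which directs vitamin B12 to its enzymes, had its higher region 5802 bp away at 30.7% and 34.0% in PA 1 and PA 2, against 24.9% and 36.3% in WT 1 and WT 2. Its other region, 40000 bp away, was at 63.9% and 66.0% in PA 1 and PA 2, against 26.4% and 64.0% in WT 1 and WT 2, with WT 1 alone far up. Auh, an enzyme of leucine breakdown, had a region 11239 bp away at 68.5% and 63.4% in PA 1 and PA 2, against 56.7% and 90.9% in WT 1 and WT 2.

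For inducible genes the shares were also above 10.6%. A region was present for 22 of 42 immediate early and feedback regulators (52.4%), with 33 regions in all, for 12 of 25 acute phase and cytokine response genes (48.0%), for 11 of 30 integrated stress and antioxidant genes (36.7%) and for 6 of 22 clock genes (27.3%). Fos, a subunit of AP-1, had one 18278 bp away at 6.04% and 12.5% in PA 1 and PA 2, against 8.32% and 8.55% in WT 1 and WT 2. Cp (ceruloplasmin), a copper-carrying acute phase protein, had the Gm42190 start shown above, at 4.03% and 2.64% in PA 1 and PA 2, against 4.38% and 4.79% in WT 1 and WT 2. Hmox1, the haem-degrading enzyme, had one at 7.74% and 4.54% in PA 1 and PA 2, against 4.92% and 7.46% in WT 1 and WT 2. Noct (nocturnin), a gene with rhythmic expression, had one at 14.3% and 4.40% in PA 1 and PA 2, against 4.14% and 4.42% in WT 1 and WT 2, with PA 1 alone lower. Tsc22d3, Btg2, Bcl3, Nfkbia, Socs3, Gclc, Herpud1, Eif2ak3, Hlf, Nr1d1 and Bhlhe40 were the other highest-placed genes of these lists. Of the housekeeping lists, a region was present for 4 of 80 cytosolic ribosomal protein genes (5%), 9 of 77 mitochondrial ribosomal protein genes (11.7%) and 3 of 39 proteasome genes (7.69%), although 75%, 72.7% and 71.8% of them had a region in all 4 libraries at a gene end. Per Mb these lists had 4.98, 7.69 and 11.3 regions, at or above the 4.89 of all genes. The intergenic DNA assigned per gene had medians of 6.58, 4.85 and 9.90 kb in these lists, against 16.6 kb over all genes. Plasma protein and apolipoprotein genes were near the share of all genes, with 7 of 53 (13.2%), among them Fgg, Ttr, F12 and Alb, but had 11.1 regions per Mb, with a median of 10.45 kb assigned per gene.

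**Figure D4:**
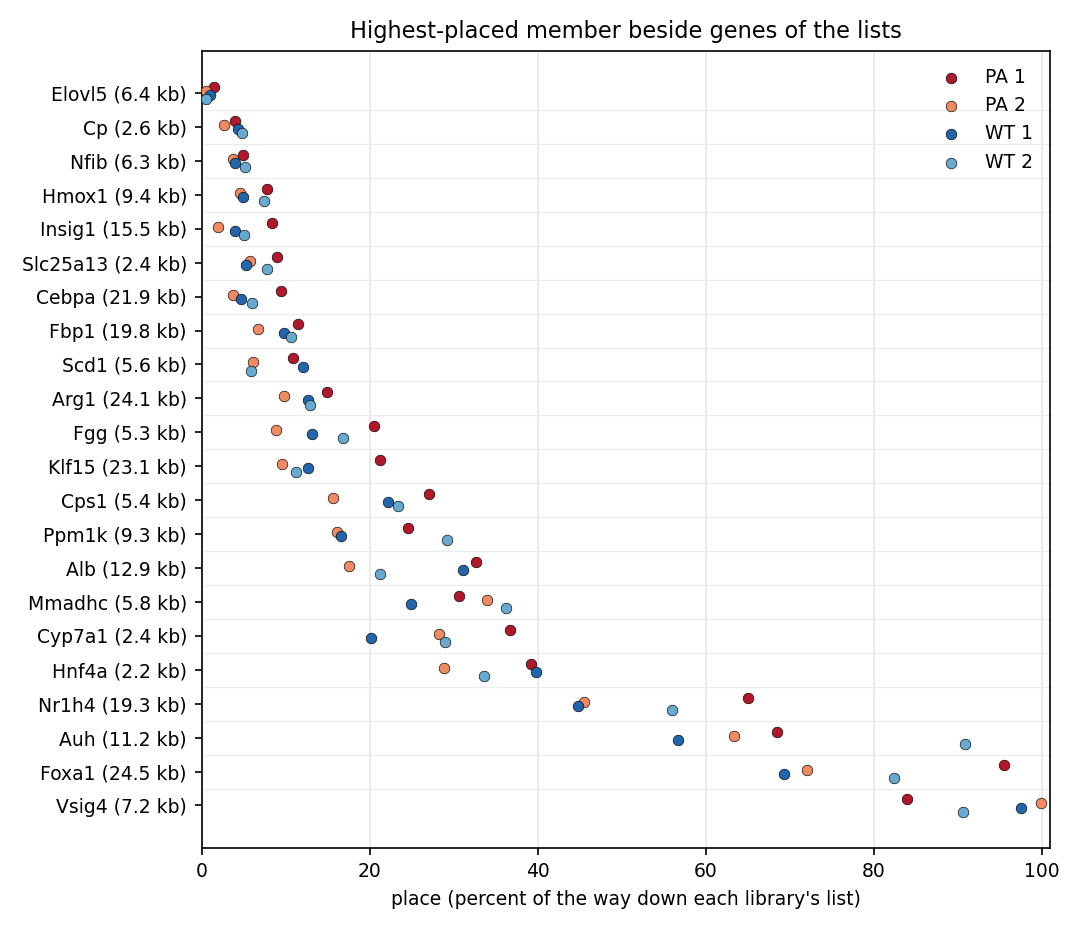
Place of the best-placed constitutive intergenic region beside each of 22 genes of the lists (horizontal axis, percent of the way down each library's list; distance to the gene end in brackets); each point is 1 library. PA and WT points interleave for most genes, and the regions of Elovl5, Cp and Nfib are within the top of all 4 lists while that of Vsig4 is at the bottom.

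The study's comparison, PA against WT livers, gave no call among these regions. Places were ranked among the 17581 regions in all 4 libraries, turned to normal scores and fitted with limma over all of them. At an adjusted p under 0.05, 0 of the 2914 were called, as were 0.0% of all regions tested, and the smallest adjusted p among the 2914 was 0.96. At an unadjusted p under 0.05 there were 190 (6.52%, 96 nearer the top in PA and 94 in WT), against 4.11% of all regions tested. The share was 1.52% for regions at gene ends, 5.07% for those inside genes and 8.6% for those far from genes. The members thus lay between the regions inside genes and those far from genes. With log2 ranks, with the replicate block, and with each library left out the count of adjusted calls was again 0. The median place of the 2914 was 45.7% ± 6.74 in PA and 48.3% ± 1.16 in WT (SD, n = 2 each), a difference of -2.56 points, less than the gap between PA 1 and PA 2 (exact permutation of libraries, two-sided, p = 1, where the smallest possible is 0.333). On the scale of ranks among regions in all 4 libraries the difference was 0.87 points, with the opposite sign. Both PA libraries stood above both WT libraries in 401 of the regions (13.8%), against 15% of all regions tested, and both WT above both PA in 447 (15.3%), against 14.0%. By place in the whole lists, whose lengths differ, the counts were 592 (20.3%) and 232 (7.96%), against 24.3% and 8.25% of all regions on that scale.

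Even the members furthest apart between genotypes did not pass the test, and their values are given as ranks, in percent, among the regions in all 4 libraries. A region 27716 bp from Klf10, a TGF-β-induced transcription factor gene, was at 68.6% and 69.7% in PA 1 and PA 2, against 20.6% and 18.7% in WT 1 and WT 2 (score difference PA minus WT -1.35, SE 0.23, limma adjusted p = 0.96). A region 15076 bp from Rprd1b, which encodes a protein that binds the tail of RNA polymerase II, was at 41.4% and 50.7% in PA 1 and PA 2, against 89.3% and 93.0% in WT 1 and WT 2 (score difference 1.46, SE 0.25, limma adjusted p = 0.96). In both, the libraries of a genotype were close together and the genotypes well apart.

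Toward the top in PA, the next were regions by Nrg4 (a growth factor of the EGF family), Dag1 (dystroglycan), Cd46 (a complement regulator), Bmp6 (the ligand that induces hepcidin), Scd2 (a fatty acid desaturase), Psap (prosaposin), Gm52030 and Apcs (serum amyloid P). The Nrg4 region was at 57.3% and 62.0% in PA 1 and PA 2, against 90.2% and 90.4% in WT 1 and WT 2. The Bmp6 region was at 56.9% and 43.5% in PA 1 and PA 2, against 93.6% and 81.7% in WT 1 and WT 2. The Cd46 region, which also lies 2653 bp from the Mir29b-2 hairpin and 3160 bp from that of Mir29c, was at 59.5% and 58.8% in PA 1 and PA 2, against 85.8% and 84.9% in WT 1 and WT 2. In the WT libraries all of those named stood in the lower part of the ranks.

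Toward the top in WT, they were by Tnfsf4 (a T cell costimulator), Ttc39b, Sepsecs (selenocysteine synthesis), Alb, Dlg1 (a scaffold protein), Morc3, Ets2 (a transcription factor), Nectin3 (a cell adhesion protein) and Igfbp2 (an insulin-like growth factor binding protein). The Alb region, 29342 bp from the gene and overlapping a lncRNA, was at 94.0% and 89.7% in PA 1 and PA 2, against 54.8% and 56.8% in WT 1 and WT 2. Of the other 4 regions by Alb, 3 had overlapping places and 1 stood nearer the top in both WT libraries. The Igfbp2 region was at 42.4% and 41.9% in PA 1 and PA 2, against 12.0% and 15.5% in WT 1 and WT 2, and was the best placed of the 10. All 19 named kept non-overlapping places in the same direction by place in the whole lists. Both scales come from the same lines and the regions were picked for wide gaps, so this is not a separate check.

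**Figure D5:**
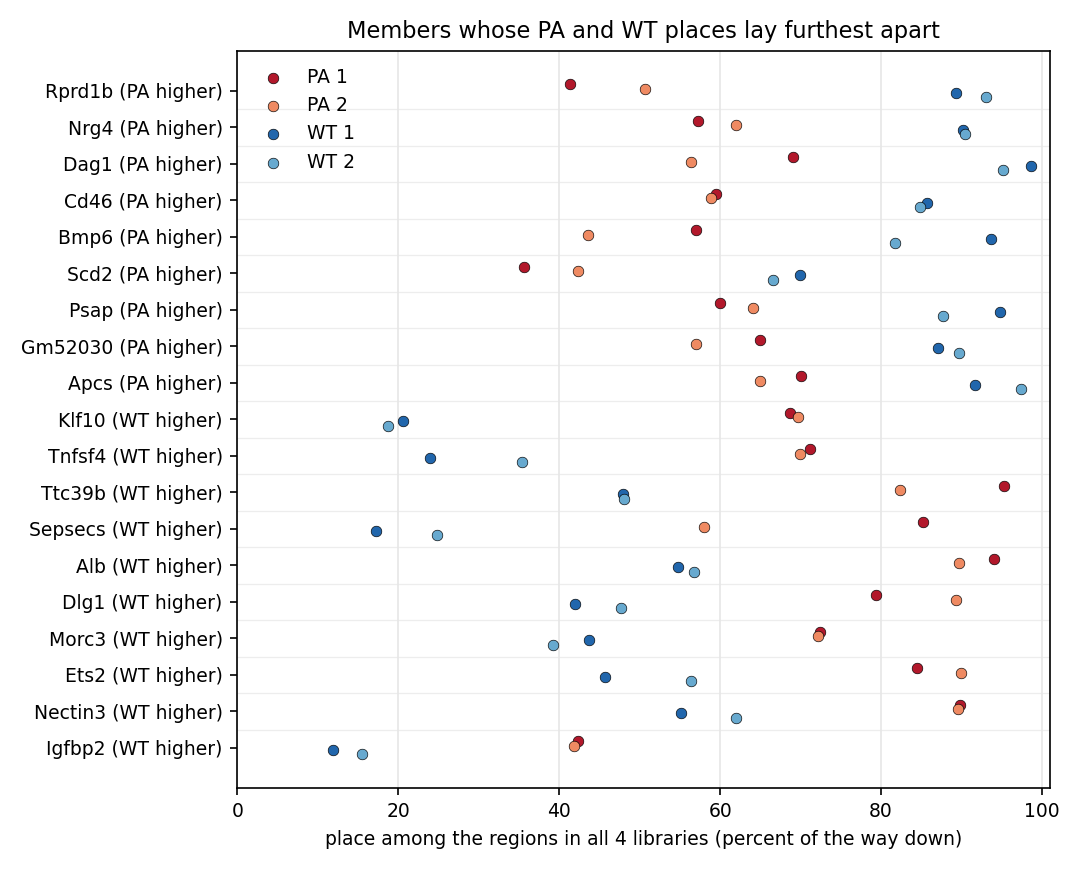
Place of 19 of the 20 constitutive intergenic regions whose PA and WT places lay furthest apart (horizontal axis, percent of the way down the ranks of regions in all 4 libraries; each point is 1 library), 9 with PA nearer the top and 10 with WT nearer the top. These regions were picked for that gap, and limma called none of them.

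By kind, 1 of the 40 tRNA-gene regions had both PA libraries above both WT libraries and 12 had both WT above both PA, against 15% and 14.0% of all regions tested. By place in the whole lists these counts were 1 and 4, against 24.3% and 8.25% of all regions, and PA 1 was the lowest library at these regions. Among the 153 regions grouped by a lncRNA start the counts were 33 (21.6%) and 17 (11.1%), and 44 (28.8%) and 9 (5.88%) by place in the whole lists. Among lists with 10 or more regions, the counts with PA and with WT nearer the top were 6 and 4 of 33 for immediate early genes, 3 and 0 of 19 for liver transcription factors, 3 and 3 of 17 for acute phase genes, 0 and 3 of 23 for the glucose list, 1 and 4 of 15 for fatty acid synthesis, 0 and 4 of 10 for bile acids and 1 and 3 of 18 for stress genes. They were 1 and 3 of 17 for fatty acid oxidation, 1 and 3 of 12 for the urea cycle, 0 and 2 of 11 each for plasma proteins and hepatocyte markers, 0 and 0 of 11 for cholesterol synthesis, 3 and 1 of 10 for mitochondrial ribosomal genes and 3 and 4 of 19 for olfactory receptors. Some genes are in more than 1 list. The 2 regions counted for plasma proteins and for hepatocyte markers were the same, both by Alb. A region by Xbp1 was counted both for liver transcription factors and for stress genes. None of these counts was tested.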

How the data were processed

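The authors deposited 1 list of peak positions for each library, with chromosome, start and end and no other value. The tools, per the submitters' processing notes, were HOMER 4.10, Bowtie2 2.5.1, bedtools 2.31.0, cutadapt 3.5, R 4.1.2 and SAMtools 1.17, with roles not stated, and the build was GRCm38 (mm10). The sources used here do not say which caller and threshold made the peaks, how reads were filtered or shifted, or how lines were ordered. Peaks were 400 bp long, with 3 or 4 exceptions a list. Read depth is unknown, so precision per region cannot be stated.

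Groups and replicate numbers were taken from sample titles. Regions, genes and lists were joined with Python 3.11.15 and pandas 2.3.3. Normal scores of ranks were fitted with limma 3.58.1 (R 4.3.3, PA minus WT, Benjamini-Hochberg over 17581 regions); the fit was tested on simulated data. Values per library were compared by exact permutation. A region belongs to the gene with the nearest end. Strand was known for the genes of 2215 of 2914 members, under 80%, so the check of which side of a gene they lie on is void and is not reported. Each gene's assigned intergenic DNA is the sequence outside genes and within the distance limits that is nearest to it.

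The regions and the 27 gene lists were chosen with earlier results of these data known. Named were the 15 regions with the best lowest place, the 10 genes with most regions (ties by name), the 10 of each direction furthest apart between genotypes, all genes with a region in the propionate and liver transcription factor lists, up to 4 of the other lists, and regions at the distance limits; a few more were chosen after their values were seen. Replicate numbers do not pair the samples. Results for a few genes that met these rules are not reported here.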

Additional observations from a re-analysis of the deposited data

How the results depend on the processing

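The count of calls by genotype among the regions was 0 under every alternative run on all 4 libraries. At an unadjusted p under 0.05 there were 107 (log2 ranks) to 212 (crossed pairing, below). The share of all regions at that limit was not kept for these runs, so the unadjusted counts are not read as a result about the members. It was 0 with the replicate block (199 unadjusted) and 0 with the crossed pairing of PA 1 with WT 2 (212 unadjusted), which was added after seeing a correlation of -0.11 between same-numbered deviations from the group means. All regions held 1 peak per library, so that alternative changed nothing. The genotype difference in median place was -2.56 points, also as the mean of same-numbered pairs, 0.87 by rank among regions in all 4 libraries, and from -7.32 to 2.20 with each library left out, the positive value without PA 2. Members with WT nearer the top in both libraries numbered 232 (7.96%) by place in the whole lists, against 8.25% of all regions on that scale. By rank they numbered 447 (15.3%), against 14.0% of all regions. Differences from regions at gene ends, inside genes and far from genes kept their sign throughout, as did those of tRNA and lncRNA-start members. The number of regions was 1107 with the upper 50% of each list, 2100 with a limit of 25 kb, 3018 to 3478 when 1 library was not required, and from 2774 to 2921 otherwise. With 25 kb the share of genes with a region was 8.40%, and 2 of 27 lists (propionate breakdown and lymphocyte markers) crossed to the other side of that share. The alternative by nearest start was not run, since strand was known for too few genes. With 2 libraries a genotype and no depth, the lack of calls does not show that places were equal, for large differences or small ones. By rank, the Klf10 region was at 68.6% and 69.7% in PA 1 and PA 2, against 20.6% and 18.7% in WT 1 and WT 2. It was not called either.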

Other observations

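A few of the constitutive intergenic regions stood high beside genes with little known role in liver. A region 46908 bp from En1, a developmental homeobox gene, was at 27.6% and 2.97% of the way down the lists of PA 1 and PA 2, against 0.833% and 5.45% in WT 1 and WT 2, with PA 1 far from the other libraries. A pair of regions by Snap25, a synaptic gene, both overlapped a lncRNA. The higher stood at 7.26% and 4.51% in PA 1 and PA 2, against 2.20% and 9.33% in WT 1 and WT 2. Regions by Vmn2r87, a vomeronasal receptor gene, and by Olfr750, where the region held 2 tRNA genes, were at 11.1% and 17.0% in PA 1, 7.91% and 11.2% in PA 2, 5.51% and 11.7% in WT 1, and 10.1% and 7.22% in WT 2.

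The 79 regions whose 4 peak centres lay within 2 bp were concentrated at the top: 49 of them were among the 729 regions with the best lowest place, and 3 among the 729 with the worst. Without them, 388 members had PA nearer the top in both libraries and 433 had WT, against 401 and 447 with them.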
